A study of Mus musculus with 18 samples.

Results

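The comparison set the wild-type (WT) hippocampus at postnatal day 45 (P45) against the WT cerebral cortex at embryonic stage E13.5 in C57BL/6 mice. Its members were the 3 hippocampus and the 3 cortex libraries so labelled, 6 of the 18 libraries of the series, and every gene with enough counts in them was tested. Stage and brain region changed together, so neither can be told apart from the other in any difference below. The other 12 libraries came from the E13.5 medial ganglionic eminence (MGE) of WT mice and from the same 3 tissues of Chd2+/- mice (HET), which carry 1 intact copy of the chromatin remodeller gene Chd2. The WT mice carry no labelled allele or treatment. All libraries were made from poly(A)-selected RNA of whole dissected tissue. The labels do not say whether a library came from 1 animal or from several, so p-values measure the spread between these libraries.

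At E13.5 the mouse cortical wall is made mainly of dividing radial glia, which line the ventricle and divide to renew themselves, of intermediate progenitors that arise from them, and of the first young neurons migrating outward. The hippocampus of a young adult is a finished circuit. Its pyramidal and granule neurons fire through established glutamate synapses, inhibitory interneurons control them, and astrocytes, oligodendrocytes that wrap axons in myelin, and microglia surround them. Camk2a, the alpha subunit of the calcium/calmodulin-dependent kinase of excitatory synapses, and Mbp, a main protein of myelin, mark that mature state.

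The 6 libraries held 26841671 to 33838812 counts. Log2 levels correlated at 0.980 to 0.993 between libraries of 1 tissue and at 0.699 to 0.707 between tissues, across genes, which are not independent replicates. Levels are given as CPM, counts relative to library size with TMM scaling, in the order of libraries 1, 2 and 3. Cortex WT 1 carried transcripts of Y-linked genes, and the other 5 libraries carried Xist in their place. Cortex WT 2 stood apart in choroid plexus genes and hippocampus WT 1 in subfield and activity genes, as given below with those genes.

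The labels were checked on the markers of the mature state, which do not tell the hippocampus from other mature forebrain. Camk2a stood at 11.6, 12.05 and 14.5 CPM in cortex and at 5751, 6521 and 6428 CPM in hippocampus. Mbp stood at 12.5, 15.4 and 14.1 CPM in cortex and at 4147, 4403 and 3390 CPM in hippocampus. Each hippocampus library exceeded each cortex library by more than 2 orders of magnitude for both. The log2 fold change, here always hippocampus against cortex, was 8.94 with a standard error (SE) of 0.12 for Camk2a and 8.15 with an SE of 0.15 for Mbp. In bulk tissue, more cells of a type and more RNA per cell cannot be told apart, and this holds for each difference below.

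Most expressed genes differed between the tissues. Of 15448 genes tested with edgeR's quasi-likelihood test, 12666 (82%) passed an adjusted p of 0.05. Of these, 6348 (41.1%) were higher in hippocampus and 6318 (40.9%) were lower. A test against a 2-fold change, which asks for more than a difference from 0, called 6975 genes (45.2%), 3826 higher (24.8%) and 3149 lower (20.4%). The groups of 3 did not overlap for 13072 genes (84.6%). The median log2 fold change of all genes tested was -0.002. TMM scaling centres fold changes near 0, so this median and the even split depend on the scaling and are no findings. Without a scaling factor, 5679 genes were called higher and 7047 lower. With upper-quartile scaling the counts were 5991 and 6735. With so large a background, a count of called genes in a list says little by itself, and the sizes of the differences carry more. A log2 fold change above 5 was found for 634 genes and one below -5 for 228 genes.

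Among genes with at least 20 CPM in the higher tissue, the largest rises were mostly in genes of glia and mature neurons. Fa2h, the enzyme that makes the hydroxylated lipids of myelin, had no count in any cortex library and stood at 69.3, 69.5 and 50.4 CPM in hippocampus, at least 1976-fold higher (floor of 3 counts over the group). Gjc3, a gap junction gene of oligodendrocytes, was at least 1899-fold higher by the same measure, and Pvalb, the calcium buffer of fast-spiking interneurons, at least 869-fold. Ddn, a dendritic spine protein, rose from 2.24, 1.93 and 2.52 CPM to 3426, 4509 and 4319 CPM. The 12 largest of these rises also held Gpr17, Mobp, Sox10, Gpr37l1, Serpina3n, Sowaha, Egr4 and Zfp831, with fitted log2 fold changes of 10.55 to 12.69. Fitted values for genes at or near 0 depend on the prior count and are no bounds.

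Above the same 20 CPM, the largest falls were in growth, primitive blood, progenitor and division genes. H19, an imprinted noncoding RNA of growing tissues, fell from 226, 110 and 140 CPM to 0.105, 0.297 and 0.126 CPM. Hbb-y and Hba-x, globins of primitive red cells, went to at most 0.768 and 0.0991 CPM, with log2 fold changes of -9.06 and -8.68. Igf2bp1, an mRNA-binding protein of fetal tissue, fell by 8.13. Eomes, the transcription factor of intermediate progenitors, fell from 327, 402 and 327 CPM to 1.43, 1.59 and 2.36 CPM. The other 7 of the 12 were Fam64a, Ccnb1, Ercc6l, Depdc1a, Esco2, Eme1 and Spc25, with falls of 7.33 to 7.96 on the log2 scale. The rule that chose these 24 genes asked for groups that do not overlap.

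**Figure D1:**
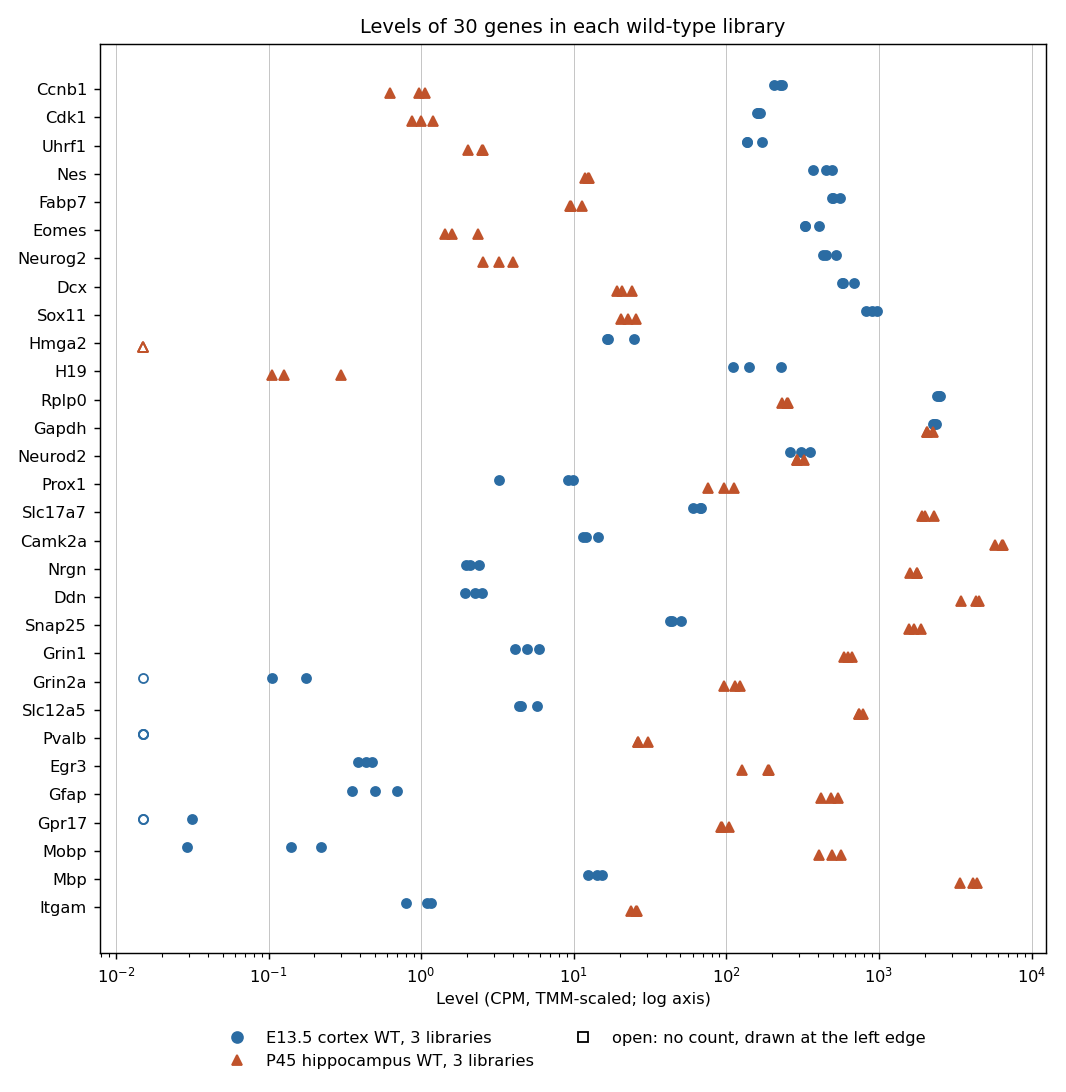
Levels of 30 genes in CPM on a log axis, 1 point for each of the 3 WT cortex libraries (circles) and the 3 WT hippocampus libraries (triangles), with open points for libraries without a count. Camk2a lies between 5751 and 6521 CPM in hippocampus and at or below 14.5 CPM in cortex, Ccnb1 shows the opposite order, and Gapdh and Neurod2 lie at like levels in both tissues.

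Genes of the cell cycle fell almost without exception. Of 44 genes for cyclins, mitotic kinases, spindle and centromere proteins, 43 were called lower and 1 higher, and the median log2 fold change was -5.74. Cdk1, the kinase that drives entry into mitosis, went from 161, 159 and 167 CPM in cortex to 0.873, 0.991 and 1.19 CPM in hippocampus. Its partner Ccnb1 went from 205, 232 and 225 CPM to 0.628, 1.06 and 0.974 CPM. Mki67, the proliferation antigen, went from 517, 551 and 535 CPM to 4.47, 6.34 and 7.70 CPM. The summed level of the list was 5789 to 6560 CPM in cortex and 295 to 313 CPM in hippocampus, so the hippocampus libraries were low together and close to each other. Kif2c, Ndc80 and Kif23, which act on spindle microtubules, kinetochores and the cleavage of the cell, fell by 7.32, 7.23 and 7.21 on the log2 scale. Ccnd1, the cyclin of early G1, was the exception, at 59.5, 52.2 and 61.2 CPM in cortex against 75.9, 87.5 and 88.8 CPM in hippocampus (log2 fold change 0.55, SE 0.09). The call for Ccnd1 was lost in 1 fit of all 18 libraries. In HET libraries Ccnd1 had the opposite sign, with a log2 fold change of -0.56.

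All 36 genes of DNA replication were called lower, with a median log2 fold change of -3.91. Tk1, thymidine kinase, went from 71.1, 80.8 and 80.4 CPM to 0.873, 0.595 and 0.503 CPM. Rrm2, the subunit of ribonucleotide reductase that limits the supply of DNA building blocks, went from 129, 175 and 131 CPM to 1.78, 3.04 and 3.24 CPM. Uhrf1, which carries DNA methylation through replication, fell by 5.97 with an SE of 0.14. The smallest change in the list was a fall by 1.56. Histone genes of the replication clusters, whose mRNAs mostly lack poly(A) tails and are poorly caught by poly(A) selection, were split: of 45 listed, 29 were tested, 16 fell and 7 rose. Hist1h3c had no count in hippocampus and was at least 125-fold lower there, while Hist1h2bc rose from 8.82, 9.07 and 6.30 CPM to 38.8, 38.6 and 55.4 CPM.

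These division genes moved together, and their promoters are shown for that reason. The windows of 250 bases before to 50 bases after the RefSeq start (GRCm38.p6, 1 window a gene) were searched on both strands for CCAAT, for TTTGAA, the core of the element named CHR, and for TTTNNCGC, a core of E2F sites. The motifs were chosen after the values were seen. Windows were found for 35 of the 44 cell cycle genes (79.5%), too few for a check of the whole list, so the shares describe those windows only. TTTGAA stood in 22 of the 35 (62.9%), against 18.1% of all 27025 promoters in the RefSeq set, and CCAAT in 24 (68.6%) against 37.9%. Only 11465 tested genes had a promoter in that set, so most of this background is of genes not tested here. TTTNNCGC stood in 2 of the 35 (5.71%), against 5.27% of all promoters. Of the 30 windows for the 36 DNA replication genes, 13 (43.3%) held TTTNNCGC, 19 (63.3%) CCAAT and 4 (13.3%) TTTGAA. A match is a description of the letters and not of a bound site. The promoters below were chosen from windows that hold the marked motifs, so their matches say nothing about the rest of each list. Below, the promoters of 2 genes of each list stand 5′ to 3′ on the gene's strand, with matches to TTTGAA and CCAAT in capitals for Cdk1 (chr10:69352863-69353162, minus strand) and Kif23 (chr9:61946750-61947049, minus strand), and to TTTNNCGC for Uhrf1 (chr17:56303087-56303386, plus strand) and Cdc6 (chr11:98907901-98908200, plus strand). ATTGG and GCGGGAAA are matches on the other strand.
Cdk1: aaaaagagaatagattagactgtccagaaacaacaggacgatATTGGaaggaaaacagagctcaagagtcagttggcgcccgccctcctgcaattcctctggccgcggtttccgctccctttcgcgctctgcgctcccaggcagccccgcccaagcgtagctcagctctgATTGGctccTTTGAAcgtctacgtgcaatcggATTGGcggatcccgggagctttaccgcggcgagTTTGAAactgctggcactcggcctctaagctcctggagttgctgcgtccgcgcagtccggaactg
Kif23: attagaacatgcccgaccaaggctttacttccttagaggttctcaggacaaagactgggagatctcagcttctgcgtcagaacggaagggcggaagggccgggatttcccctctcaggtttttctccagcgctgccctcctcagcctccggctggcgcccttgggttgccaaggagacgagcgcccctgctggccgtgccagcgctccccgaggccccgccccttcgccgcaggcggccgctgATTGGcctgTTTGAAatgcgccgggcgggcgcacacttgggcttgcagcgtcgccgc
Uhrf1: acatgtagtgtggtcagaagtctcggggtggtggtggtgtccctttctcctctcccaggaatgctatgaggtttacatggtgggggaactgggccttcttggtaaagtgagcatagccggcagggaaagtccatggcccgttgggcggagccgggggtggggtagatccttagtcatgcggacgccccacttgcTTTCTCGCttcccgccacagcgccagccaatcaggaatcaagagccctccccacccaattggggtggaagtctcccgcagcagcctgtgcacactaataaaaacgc
Cdc6: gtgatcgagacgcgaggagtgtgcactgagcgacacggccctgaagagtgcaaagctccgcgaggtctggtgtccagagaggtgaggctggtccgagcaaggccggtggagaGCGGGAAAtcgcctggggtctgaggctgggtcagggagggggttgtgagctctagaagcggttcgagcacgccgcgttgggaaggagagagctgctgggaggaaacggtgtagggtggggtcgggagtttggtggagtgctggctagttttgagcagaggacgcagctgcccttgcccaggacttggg

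The progenitor types of the embryonic wall were low in the hippocampus. Of 23 genes of radial glia and neural stem cells, 21 fell and 2 rose, with a median log2 fold change of -2.36. Nes, the intermediate filament of neural stem cells, went from 451, 492 and 369 CPM to 11.9, 12.5 and 12.3 CPM. Fabp7, a fatty acid binding protein of radial glia, went from 552, 503 and 494 CPM to 11.3, 9.52 and 9.61 CPM. Pax6, which specifies dorsal progenitors, fell by 4.08 on the log2 scale, Vim by 4.71 and Sox3 by 5.55. The 2 that rose are kept by astrocytes or by adult stem cells: Slc1a3, the glial glutamate transporter GLAST, rose from 122, 122 and 113 CPM to 575, 608 and 604 CPM, and Hopx rose by 1.86. All 16 genes of intermediate progenitors and proneural factors fell (median -3.46). Neurog2, which commits dorsal progenitors to the neuronal fate, went from 430, 524 and 452 CPM to 4.01, 3.24 and 2.54 CPM.

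Young-neuron genes fell in most cases. Of 30, 23 were lower, 5 were higher and 2 (Nrp1 and Bcl11b) did not pass, with a median of -2.44. Dcx, the microtubule protein of migrating neurons, went from 584, 575 and 688 CPM to 19.2, 20.6 and 24.2 CPM. Sox11 went from 827, 905 and 968 CPM to 20.5, 22.5 and 25.6 CPM, and Cd24a, a surface protein of newborn neurons, fell by 6.34. The 5 members that rose were Dclk1, Myt1l, Nfasc, Cdk5r1 and Ina. Dclk1, a doublecortin-related kinase, rose from 161, 150 and 177 CPM to 678, 704 and 701 CPM, Myt1l, a repressor of non-neuronal genes, rose by 1.87, and Nfasc, a cell adhesion protein of the axon initial segment, rose by 1.64. The kinase activator Cdk5r1 and Ina, an intermediate filament protein of neurons, rose by 0.47 and 0.49.

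Factors of embryonic timing followed. Of 14 listed, 13 were tested, 10 fell and 1 rose (median -3.73). Hmga2, a chromatin protein of early stem cells, stood at 16.5, 16.7 and 24.99 CPM in cortex and had no count in hippocampus, at least 579-fold lower. Igf2bp2 and Igf2bp3 fell by 7.07 and 3.73 on the log2 scale. Igf2, the fetal growth factor, went from 244, 125 and 134 CPM to 37.6, 26.6 and 29.6 CPM. Lin28b, which blocks let-7 maturation, was already low in cortex, at 1.81, 1.23 and 1.30 CPM, and its log2 fold change of -0.79 did not pass (edgeR adjusted p = 0.0682). Lin28a was not tested for want of counts. Trim71 went the other way, from 0.146, 0.126 and 0.140 CPM to 3.18, 2.97 and 1.48 CPM.

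Transcription factors of the cortical layers did not move as a group. Of 22, 7 rose (31.8%), 10 fell (45.5%) and 5 did not pass, beside 41.1% higher and 40.9% lower of all genes tested. The median was -0.12. Neurod2, a factor of excitatory neurons, stood at 262, 307 and 351 CPM in cortex and at 290, 290 and 323 CPM in hippocampus. The 2 tissues overlapped for Neurod2 and the difference did not pass (edgeR adjusted p = 0.822). Bcl11b likewise overlapped, at 213, 225 and 315 CPM against 209, 257 and 282 CPM. Tbr1, a deep-layer factor, fell from 230, 256 and 336 CPM to 54.5, 54.5 and 63.3 CPM. Neurod6 fell by 2.08, Sox5 by 3.30 and Foxp2 by 4.46, while Pou3f1, Etv1 and Nr4a2 rose by 2.79, 2.57 and 2.11. Emx1, which patterns the dorsal forebrain in both regions, was lower in hippocampus, at 17.2, 17.1 and 20.5 CPM against 110, 142 and 116 CPM in cortex.

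Genes of hippocampal subfields and of excitatory neurons rose. Of 29, 26 were called higher and 1 lower, with a median of 4.80. C1ql2, a synaptic organiser of dentate granule cells, went from 0.204, 0.0632 and 0 CPM to 110, 104 and 121 CPM. Prox1, the granule cell factor, went from 9.20, 9.96 and 3.22 CPM to 76.1, 96.4 and 113 CPM, and Rgs14, a CA2 gene, rose by 8.76. Slc17a7, the main vesicular glutamate transporter of the adult forebrain, went from 60.0, 68.1 and 67.0 CPM to 2292, 2011 and 1913 CPM.

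Hippocampus WT 1 differed from its replicates in genes with a known place within and beside the hippocampus. Wfs1, a CA1 marker, stood at 184 CPM in hippocampus WT 1 and at 479 and 481 CPM in the others. Lct stood at 67.7 CPM against 162 and 183 CPM. Cpne7 was higher in hippocampus WT 1, at 399 CPM against 175 and 128 CPM, as were Nov (132 against 77.5 and 52.6 CPM), Hrh3 and the deep-layer factor Fezf2 (69.8 against 41.6 and 29.3 CPM). Of 8169 genes with a mean of at least 20 CPM in hippocampus, 17 varied more than 2-fold among the 3 libraries. Without hippocampus WT 1, 26 of the 29 subfield and excitatory genes were called higher and 2 lower, with a median of 4.80, and 12436 genes were called in all. Wfs1, Lct, Cpne7 and Nov stayed above all cortex libraries in each hippocampus library.

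The machinery of transmitter release rose as a block. Of 31 presynaptic genes, 30 were called higher (41.1% of all genes tested) and 1 lower, with a median log2 fold change of 3.91. Snap25, the SNARE protein of synaptic vesicle fusion, went from 42.6, 43.9 and 50.7 CPM to 1893, 1582 and 1687 CPM. Syt1, the calcium sensor of release, went from 39.8, 34.1 and 39.1 CPM to 1608, 1430 and 1451 CPM, and Rims1, an active zone scaffold, rose by 5.08. Stx1a, a partner of Snap25, rose less, by 2.12. The member that fell was Slc17a6, the vesicular glutamate transporter found mainly below the cortex in adults, from 77.2, 89.9 and 90.5 CPM to 12.01, 4.53 and 2.73 CPM, with hippocampus WT 1 the highest of the 3.

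Receptors rose on both sides of transmission. Among 28 glutamate receptor genes, 25 rose and 2 fell (median 4.39). Grin1, the obligatory NMDA receptor subunit, went from 4.95, 4.11 and 5.95 CPM to 593, 662 and 631 CPM. Grin2a, the NMDA subunit of mature synapses, went from 0.175, 0 and 0.105 CPM to 96.0, 124 and 114 CPM, a log2 fold change of 10.13, and Grin2b, the subunit that comes first in development, rose by 4.37. Gria1, an AMPA receptor subunit, rose by 5.18 and Gria2, which makes the channel impermeable to calcium, by 1.45. Gria2 was already at 345, 312 and 370 CPM in cortex. The 2 that fell were the kainate subunit Grik2, by 0.33, and the NMDA subunit Grin3b, by 0.76 (edgeR adjusted p = 0.0491), and the call for Grin3b was lost with a replicate block and in 6 other fits of WT libraries. All 18 genes of GABA receptors and chloride transport rose (median 3.40). Slc12a5, the chloride exporter KCC2 that makes GABA inhibitory, went from 4.54, 5.72 and 4.41 CPM to 741, 784 and 736 CPM. The chloride importer Slc12a2 was at 75.9, 77.1 and 71.5 CPM in cortex against 89.9, 96.8 and 80.9 CPM in hippocampus (log2 fold change 0.25), a call lost with upper-quartile scaling, without a scaling factor and in 1 fit of all 18 libraries.

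Postsynaptic scaffolds and kinases rose in 27 of 28 cases, with Dlg1 the member that did not pass (median 3.33). Nrgn, a calmodulin-binding protein of dendrites, went from at most 2.39 CPM to 1585, 1766 and 1785 CPM. Dlgap1, a scaffold protein, rose by 5.95, while Dlg4, the scaffold PSD-95, went from 108, 111 and 110 CPM to 926, 1052 and 998 CPM. Of 39 voltage-gated channel genes, 37 rose and none fell (median 3.76). Hcn2, a pacemaker channel, rose by 6.67. Calcium-binding and signalling genes rose in 19 of 20 cases (median 3.89), with Hpca, the hippocampal calcium sensor hippocalcin, going from 17.4, 17.8 and 15.6 CPM to 2561, 2809 and 2816 CPM. Of 20 neurofilament and mature cytoskeleton genes, 19 rose (median 2.04), led by Nefh and Nefl with 7.19 and 7.03.

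**Figure D2:**
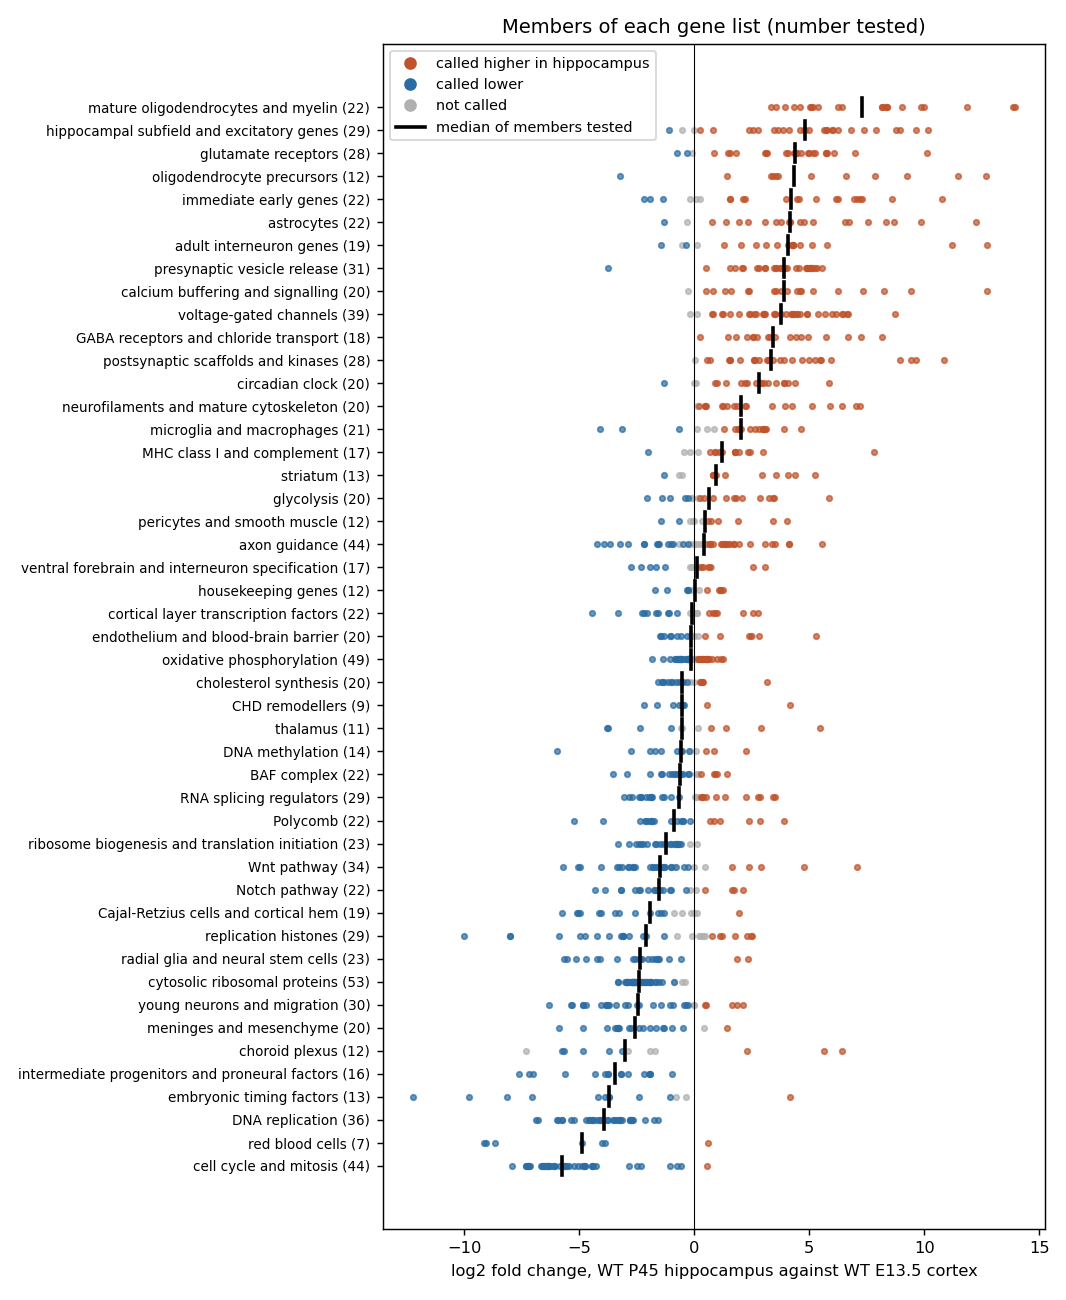
Log2 fold changes of the tested members of 47 gene lists with at least 5 genes tested (sex-linked and muscle and liver genes are left out), 1 point a gene and 1 row a list, coloured by the call and with the median as a bar; genes without a count in one tissue are drawn at their fitted value. The medians run from -5.74 for the cell cycle to 7.28 for myelin, and the lists of metabolism, vessels and cortical layers lie near 0.

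Activity-regulated genes were high in the hippocampus. Of 22 immediate early genes, which neurons switch on within minutes of firing, 16 rose and 3 fell (median 4.22). Egr1 went from 2.80, 1.80 and 1.30 CPM to 160, 401 and 331 CPM, and Arc, which acts at synapses, from 5.68, 7.87 and 3.08 CPM to 276, 522 and 409 CPM. Fos went from 0.845, 0.980 and 1.16 CPM to 16.4, 29.5 and 23.6 CPM. Hippocampus WT 1 was the lowest hippocampus library for each of these, and still above all cortex libraries. The 3 that fell were Btg2 (by 2.19), a brake on progenitor division, Ier2 (by 1.92) and Ier5 (by 1.35). Clock genes rose in 17 of 20 cases (median 2.79). Dbp, an output gene of the clock, rose by 3.90, Per3 by 3.91 and Arntl by 1.40, while the kinase gene Csnk1e fell by 1.31. The labels used here give no time of day for the dissections.

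Interneuron genes rose in 15 of 19 cases and fell in 2 (median 4.09). Gad1, which makes GABA, went from 8.04, 7.87 and 11.2 CPM to 321, 301 and 322 CPM, and Sst, the peptide somatostatin, from 8.77, 7.05 and 9.59 CPM to 217, 224 and 166 CPM. Vip had no count in cortex and was at least 302-fold higher in hippocampus. Reln, made by Cajal-Retzius cells in the embryo and by interneurons in the adult, fell from 255, 273 and 209 CPM to 85.5, 92.1 and 90.9 CPM. Genes that specify ventral forebrain and interneurons were split, with 6 higher (35.3%) and 5 lower (29.4%) of 17 tested. The counts were 2 and 6 without a scaling factor and 4 and 6 with upper-quartile scaling. All genes tested gave 41.1% higher and 40.9% lower. Nkx2-1, the MGE factor, stood at 0.641, 0.474 and 1.51 CPM in cortex against 0.943, 1.19 and 0.848 CPM in hippocampus, and the difference did not pass (edgeR adjusted p = 0.705).

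Myelin genes had the largest median rise of the lists with at least 5 genes tested. All 22 genes of mature oligodendrocytes and myelin were higher, with a median of 7.28 against -0.002 for all genes. Mag, a myelin protein that sits next to the axon, went from 0.349, 0.285 and 0.280 CPM to 303, 330 and 233 CPM. Hippocampus WT 3 was the lowest of its group for Mag, as for Mbp. The smallest rise in the list was 3.34. Among 12 genes of oligodendrocyte precursors, 11 rose (median 4.35), and Vcan, a matrix proteoglycan also made in the embryonic wall, fell from 297, 251 and 297 CPM to 26.3, 31.3 and 31.6 CPM. Olig1 went from 0.408, 0.316 and 0.350 CPM to 225, 236 and 210 CPM.

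Astrocyte genes rose in 20 of 22 cases (median 4.16). Gfap, their intermediate filament, went from 0.495, 0.696 and 0.350 CPM to 415, 483 and 540 CPM. Aqp4, the water channel of their end-feet, went from 1.16, 1.26 and 1.68 CPM to 128, 148 and 150 CPM. Sox9, shared with radial glia, fell by 1.32, and Fgfr3 did not pass. Microglia and macrophage genes rose in 15 of 21 cases and fell in 3 (median 2.02). P2ry12, a receptor of resident microglia, went from 3.90, 3.32 and 3.96 CPM to 29.7, 32.1 and 33.4 CPM. Mrc1 and Pf4, genes of border macrophages, fell by 3.16 and 4.09. Of 17 genes of MHC class I and complement, which tag synapses and cells for removal, 13 rose and 1 fell (median 1.19). C4b went from 0.291, 0.126 and 0 CPM to 35.6, 30.9 and 35.8 CPM.

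Vessel genes moved in both directions. Of 20 genes of endothelium and the blood-brain barrier, 6 rose (30%) and 8 fell (40%), with a median of -0.14. Of all genes tested, 41.1% rose and 40.9% fell, so these counts do not set vessel genes apart. Kdr, the receptor of vessel growth, went from 50.5, 32.9 and 30.8 CPM to 13.2, 12.99 and 14.1 CPM. The efflux pump gene Abcb1a went from 5.53, 3.26 and 3.50 CPM to 27.8, 30.7 and 26.95 CPM, and Ly6c1 rose by 5.30. Cldn5, the tight junction protein, fell by 0.60. Pericyte and smooth muscle genes showed 6 rises (50%) and 2 falls (16.7%) in 12, and Myh11, of arterial smooth muscle, rose by 4.01.

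Tissues that border the brain carried more signal in the cortex libraries. Of 20 genes of meninges and mesenchyme, 18 fell and 1 rose (median -2.59), and their summed level was 740 to 1210.0 CPM in cortex and 200 to 227 CPM in hippocampus. Col3a1, a fibrous collagen, stood at 236, 153 and 158 CPM in cortex, highest in cortex WT 1, and at 3.28, 3.14 and 2.95 CPM in hippocampus. Cajal-Retzius and hem genes, of the signalling edge of the cortex, fell in 13 of 19 cases (median -1.93). Choroid plexus genes depended on 1 library: their summed level was 1635, 24.1 and 1263 CPM in cortex and 202 to 225 CPM in hippocampus. Ttr, the plexus' transport protein, stood at 1374, 0.411 and 1082 CPM in cortex, and at 4.61, 6.18 and 4.84 CPM in hippocampus. Cortex WT 2 thus lay below the hippocampus and the other cortex libraries far above it, and the log2 fold change of Ttr, -7.29, did not pass (edgeR adjusted p = 0.0542). Of 12 plexus genes tested, 5 were called lower and 3 higher, and without cortex WT 2, where 15 could be tested, 12 were called lower and 3 higher.

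Red cell genes fell in 6 of 7 tested cases. Hbb-bh1, an embryonic globin, had no count in hippocampus and was at least 69.1-fold lower. The adult globin genes Hba-a1 and Hbb-bs were listed at 0 in all 6 libraries, so the table cannot serve to compare adult blood. For these near-identical gene copies, and for Eno1, also listed near 0 beside Eno1b at 132, 1.83 and 1.65 CPM in cortex, the counting may have lost or moved reads.

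**Figure D3:**
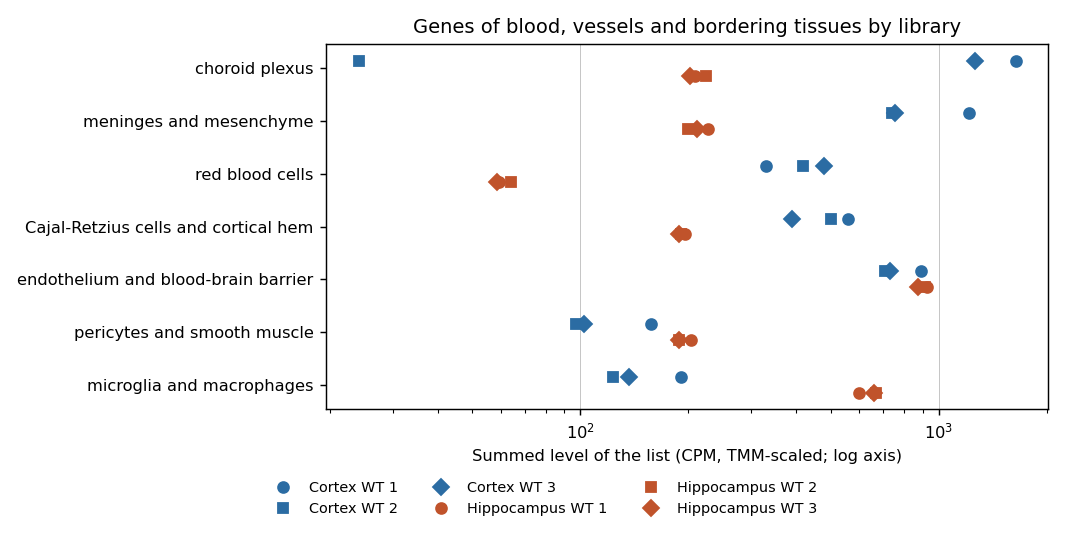
Summed level of 7 gene lists in CPM on a log axis, 1 point a library, with the shape giving the library number. Choroid plexus genes reach 1635 CPM in cortex WT 1 and 24.1 CPM in cortex WT 2, while meninges and red cell lists are higher in all cortex libraries than in any hippocampus library.

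Genes of protein synthesis fell together. Of 53 genes of cytosolic ribosomal proteins, 50 were called lower and none higher by edgeR, with a median of -2.41. Their summed level was 48754 to 49323 CPM in cortex and 9389 to 9867 CPM in hippocampus, a narrow range within each tissue. Rplp0 went from 2497, 2389 and 2478 CPM to 231, 248 and 253 CPM. Rpl30, Rpl34 and Rps27 did not pass. These genes have many processed copies in the genome, so the counting may affect their levels. Ribosome biogenesis and initiation genes fell in 21 of 23 cases (median -1.22), led by Npm1, a nucleolar chaperone, with a fall by 3.31. The protein-coding genes tested, which held none with the mt- symbol of the mitochondrial genome, were also ranked by level per kilobase of exon. The elongation factor Eef1a1 had the highest level in cortex, at 4301 CPM per kb, followed by the tubulin Tuba1a at 3194. In hippocampus the order was led by Ncdn, a cytoplasmic protein of neurons, at 1322 CPM per kb, then Nrgn at 1178 and Cpe, which trims peptide hormones, at 1141. On the same scale, Ncdn stood at 18.5 and Nrgn at 1.48 CPM per kb in cortex.

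Energy metabolism was mixed. Oxidative phosphorylation genes split into 19 higher (38.8%) and 23 lower (46.9%) of 49, near the 41.1% and 40.9% of all genes tested. The split was 16 and 26 with upper-quartile scaling, 14 and 27 without a scaling factor, and 17 and 11 in HET libraries. Of the 49, 2 were past 2-fold in each direction. Their summed levels were 8776 to 8859 CPM in cortex against 8425 to 8958 CPM in hippocampus. No gene with the mt- symbol of the mitochondrial genome was in the counts, so subunits encoded there are not covered. Glycolysis genes rose in 12 of 20 tested cases and fell in 5 (median 0.63). Eno2, the neuronal enolase, went from 19.2, 15.4 and 19.4 CPM to 1046, 1026 and 1011 CPM, and Hk1, the main brain hexokinase, rose by 3.41. Hk2 and Ldha, isoforms typical of growing tissue, fell by 2.04 and 1.06. Of 20 genes in the cholesterol synthesis list, 12 fell and 5 rose (13 and 3 with upper-quartile scaling, 13 and 1 without a scaling factor). The strongest rise, 3.17, was of Cyp46a1, a list member that removes cholesterol from neurons and does not make it. Gapdh did not pass, at 2247, 2283 and 2345 CPM against 2265, 2060 and 2061 CPM, though it passed as lower with 2 of the other scalings. Of 12 common reference genes, 5 were higher and 5 lower (41.7% each), among them Ppia (by -1.19) and Hprt (by 1.17). These shares are near those of all genes tested.

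Chromatin regulators mostly fell, while splicing regulators were split. Of 22 Polycomb genes, 16 fell and 6 rose. Ezh2, the methyltransferase of dividing cells, went from 194, 232 and 209 CPM to 4.43, 6.08 and 6.47 CPM, and its relative Ezh1 from 19.3, 19.4 and 16.6 CPM to 98.0, 91.9 and 95.2 CPM. Cbx2 fell by 3.98 and Cbx7 rose by 3.92. In the BAF complex, an ATP-dependent remodeller that swaps subunits as neurons form, 15 of 22 genes fell and 5 rose. Among 9 CHD remodellers 7 fell, with Chd2 at 138, 151 and 141 CPM in cortex against 74.9, 71.1 and 78.1 CPM in hippocampus. Chd5, the neuronal member, rose by 4.18. DNA methylation genes fell in 9 of 14 cases, with Dnmt1 down from 187, 245 and 201 CPM to 63.9, 62.7 and 66.0 CPM. Of 29 splicing regulators, 15 fell (51.7%) and 11 rose (37.9%), beside 40.9% and 41.1% of all genes tested. Without a scaling factor, 16 fell and 9 rose. Ptbp1, the splicing repressor of progenitors, fell by 3.03 and Ptbp2, its relative in young neurons, by 2.33, while Rbfox1 and Rbfox3, splicing factors of mature neurons, rose by 3.41 and 2.87.

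Related genes, several of them known to replace each other in development, were read pair by pair. Of 20 pairs, both genes could be tested in 19, and the gene listed first fell while the other rose in 8. Both rose in 7 and both fell in 3. Eef1a2, the elongation factor of mature neurons, went from 20.2, 18.97 and 23.7 CPM to 927, 890 and 855 CPM as Eef1a1 fell by 2.22. Tubb4a rose by 3.39 and Tubb2b fell by 3.73. Snap25 and Vamp2 rose by 5.23 and 3.57 where Snap23 and Vamp3, their relatives of general secretion, fell by 0.78 and 1.10. Actl6b, the neuronal BAF subunit, rose only by 0.89, from 50.5, 53.2 and 53.2 CPM, while Actl6a fell by 3.52. Dnm1 rose by 6.38 beside Dnm2, which did not pass. Dpysl2 rose by 0.27, a call lost with some scalings and with an opposite value of -0.25 in HET libraries.

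**Figure D4:**
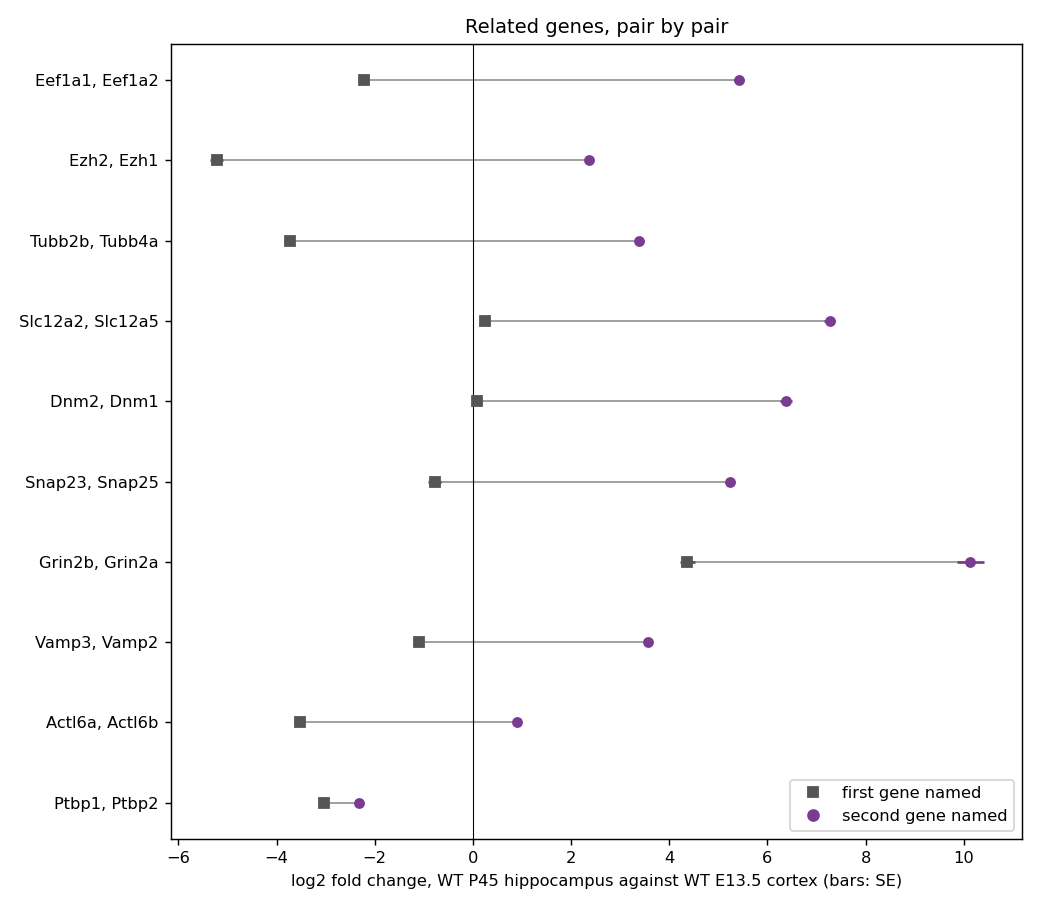
Log2 fold changes with SE of 10 pairs of related genes, those with both members named in the text, the first gene of a pair as a square and the second as a circle. The pairs Eef1a1 and Eef1a2, and Ezh2 and Ezh1, lie on opposite sides of 0, while Ptbp1 and Ptbp2 both lie below it and Grin2b and Grin2a both above.

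Signalling pathways of the embryo were mostly lower. Of 22 Notch pathway genes, 16 fell and 4 rose (median -1.55). The ligand Dll1 went from 88.4, 121 and 96.1 CPM to 12.2, 10.3 and 10.9 CPM, and the target Hes5 fell by 2.59. Jag2, another ligand, rose by 1.63, and Dner by 2.11. Of 34 Wnt pathway genes, 26 fell and 5 rose (median -1.50). The secreted inhibitor Sfrp1 went from 238, 291 and 306 CPM to 5.62, 4.79 and 5.43 CPM, the ligands Wnt8b and Wnt3a of the cortical hem fell by 5.05 and 4.96, and the receptor Fzd2 by 3.38. Dkk3 rose from 30.3, 20.4 and 14.9 CPM to 601, 594 and 579 CPM. Axon guidance genes divided, with 22 higher (50%) and 15 lower (34.1%) of 44, beside 41.1% and 40.9% of all genes tested. The repellent Sema3e rose by 5.54 and the receptor Unc5c by 4.12, and Sema3f and Sema3a fell by 4.25 and 3.65.

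Gene families were also taken by symbol, after the values were seen, and some were one-sided and others divided. Of 345 tested genes named Zfp, mostly zinc finger transcription factors, 229 fell and 55 rose (median -0.77). Genes named Psma to Psmg, which are proteasome subunits and a few other factors such as assembly chaperones, fell in 43 of 48 cases (median -1.30), and Psmb8 and Psmb9 of the immunoproteasome rose by 1.42 and 1.48. Hnrnp genes, which package nascent RNA, fell in 19 of 20 cases and Snrp genes of the spliceosome in 11 of 12. Clustered protocadherins, which give neurons surface identities, rose in 49 of 56 tested cases and fell in none (median 1.42). Pcdhgc5 rose most clearly among those looked at, from 0.699, 0.948 and 1.16 CPM to 125, 117 and 119 CPM. Potassium channel genes (Kcn) rose in 63 of 83 cases. Kinesins, the motors of microtubules, divided into 13 higher and 16 lower of 35, beside 41.1% higher and 40.9% lower of all genes tested. Genes named Gna, Gnb or Gng, mostly G protein subunits, divided into 12 and 8 of 26, and phosphodiesterases into 13 and 7 of 21. None of 41 Hox genes, which pattern tissue behind the forebrain, had counts enough to be tested.

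The longest genes were more often higher in hippocampus. Gene span could be read from GENCODE M21 for 95.2% of tested genes. The median span was 32196 bases among genes higher past 2-fold, 19726 bases among those lower and 24258 bases among all genes tested. With the genes ordered by span into 5 groups of like size, 36.4% of the longest group, above 77024 bases, were higher past 2-fold and 14.8% lower. In the shortest group the shares were 21.3% and 23.5%. Exonic length moved in the same direction, with medians of 4662 bases in genes higher and 4038 bases in genes lower, and its part in the pattern of span was not tested.

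**Figure D5:**
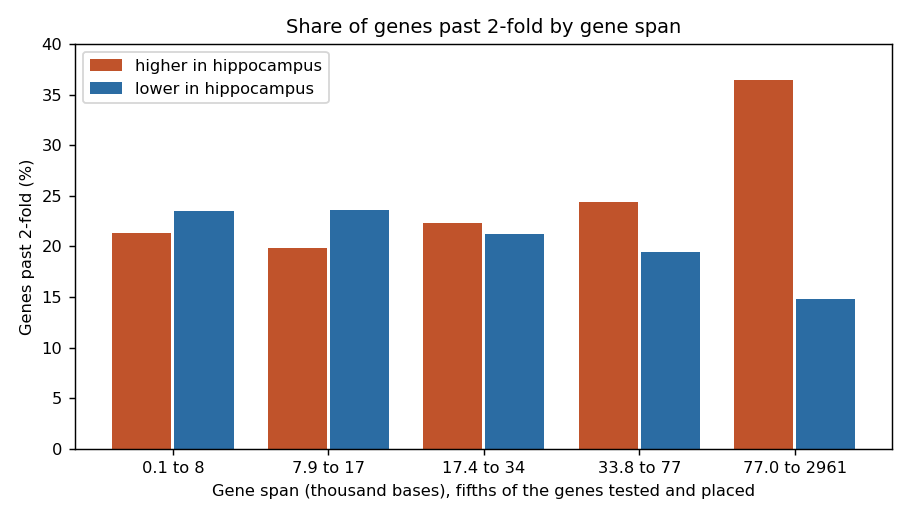
Share of genes past 2-fold higher (left bars) and lower (right bars) in hippocampus, in percent, for 5 groups of the tested genes ordered by span. The share higher is 36.4% in the longest group against 19.8% to 24.4% in the other 4.

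Levels in the MGE, the other embryonic region, were also read for a few genes. On a scale of all 18 libraries, Camk2a stood at 55.5, 45.4 and 41.9 CPM in WT MGE, above the WT cortex (11.9 to 14.9 CPM) and far below the WT hippocampus (5684 to 6490 CPM). Mbp was at 33.4, 42.7 and 36.4 CPM in WT MGE. Ccnb1 was at 394, 358 and 326 CPM in WT MGE and 211 to 234 CPM in WT cortex, against 0.621 to 1.05 CPM in WT hippocampus. Emx1 was below 1 CPM in WT MGE, in contrast to both WT cortex and WT hippocampus, and Dlx1 stood at 384, 520 and 578 CPM there against 5.23 to 8.14 CPM in WT cortex and 9.69 to 11.2 CPM in WT hippocampus. No test was made on these levels or on the parts of stage and region.

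The HET libraries gave the same comparison in 6 other libraries. Of 15440 genes tested, 12166 (78.8%) were called. Of the 12549 WT calls tested there, 11223 (89.4%) were called in the same direction, and of the 6876 past 2-fold in WT, 6819 (99.2%) were. The sign was the same for 12319 of the 12549, and 9 genes were called in opposite directions. Of the 48 lists with 5 or more genes tested, the median of 47 had the same sign, the exception being the reference genes. Chd2 itself was lower in HET, at 124 to 125 CPM against 143 to 153 CPM in cortex and 64.4 to 67.5 CPM against 70.7 to 78.9 CPM in hippocampus, on the scale of all 18 libraries.

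A test of whether the difference between tissues depended on genotype called 2 of 15930 genes (0.0126%) with edgeR, and 2047 (12.85%) had an unadjusted p under 0.05. Tmem163, a zinc-binding protein of vesicle membranes, rose in WT from 6.20, 8.73 and 7.07 CPM to 105, 126 and 110 CPM (log2 fold change 3.96) and by 0.61 in HET. The difference was -3.31 with an SE of 0.24 (edgeR adjusted p = 8.02e-05). Hddc3 fell by 1.72 in WT and had -0.19 in HET, a difference of 1.57 with an SE of 0.20 (edgeR adjusted p = 0.0322). The call for Hddc3 was lost with a replicate block (edgeR adjusted p = 0.0886), with upper-quartile scaling (0.0622), in the fit of all 18 libraries (0.135) and in 9 of the 12 fits without 1 library. This count rested on 1 library: without HET cortex 3, 3992 genes were called, against 1 to 7 without any other library, and the HET comparison then called 13193 genes. HET cortex 3 correlated at 0.985 to 0.989 with the WT cortex libraries and at 0.978 with the other HET cortex libraries, which correlated with each other at 0.987. Ccnd1 stood at 117, 112 and 59.7 CPM in HET cortex 1, 2 and 3 and at 52.6 to 62.7 CPM in WT cortex, and Neurod6 at 516, 471 and 1138 CPM against 1052 to 1212 CPM, while Chd2 did not set HET cortex 3 apart. DESeq2 called 99 genes.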

How the data were processed

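The deposited table holds raw counts per gene symbol, whole numbers with no normalization, for 18 poly(A)-selected mouse libraries. Per the submitters' processing notes, reads were mapped to mm10, and TopHat2 2.1.1, Trimmomatic, FastQC, DESeq2 and SAMtools were in use. How reads were counted, on which annotation and with which strand rule is not given in the sources at hand, so overlapping and antisense genes cannot be told apart.

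Groups came from the sample titles. The table had 24062 lines, of which 4544 had no count in the 6 WT libraries. Symbols turned into dates filled 27 lines (0.259 to 0.286% of counts), were kept in totals and tests, and are not named. Genes were filtered with filterByExpr (minimum count 10, minimum total 15), scaled by TMM and tested with edgeR 4.0.16 in R 4.3.3 by the robust quasi-likelihood F test, without a block, with Benjamini-Hochberg adjustment over all genes tested and a threshold of 0.05. The test past 2-fold was glmTreat. A few genes that the rule below would name are not reported here. The SE is the absolute log2 fold change divided by the square root of F. Total counts of 26841671 to 33838812 a library set the precision. A gene without a count in one tissue got a bound from a floor of 3 counts over that tissue's libraries, which covers counting error only. Simulated counts held 15448 genes, of which 50 each were changed 1.5-, 2-, 4- and 8-fold. On these counts the test gave the simulated direction in 100% of the changed genes. It recovered 58% of the 1.5-fold, 74% of the 2-fold, 94% of the 4-fold and 100% of the 8-fold changes. Of 184 calls, 21 (11.4%) were false, a larger share than the threshold allows. Far fewer genes were changed there than were called in the libraries, so that share does not carry over to the calls reported.

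The members and the 50 gene lists were chosen with earlier results of these data known, as were the pairs, and lists therefore carry no test of their own. Named genes were Camk2a and Mbp, the 12 largest changes in each direction with at least 20 CPM in the higher group, up to 5 genes a list in its main direction and 3 against it (at least 2 CPM), the pairs, the reference genes, the 6 most variable genes a tissue, and the 5 genes with the lowest interaction p. Other genes named (among them Mki67, Pax6, Emx1, Prox1, Slc17a7, Neurod2, Bcl11b, Aqp4, Cldn5, Gria1, Gria2, Dlg4, Stx1a, Arc, Fos, Arntl, Igf2, Igf2bp3, Lin28b, Nkx2-1, Psmb8, Psmb9 and Pcdhgc5) were chosen for their known roles after values were seen. Spans and exonic lengths came from GENCODE M21 (GRCm38, the sequence of mm10) by symbol, and promoters from RefSeq. Replicate numbers did not pair the libraries. Alternatives were RLE, upper-quartile and no scaling, no filter, DESeq2 1.42.0, limma-voom (limma 3.58.1), 1 fit of all 18 libraries, a replicate block, and leaving out each library.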

Additional observations from a re-analysis of the deposited data

Results flagged for a closer look

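For 2 genes the difference between hippocampus and cortex differed between WT and HET by an interaction test in edgeR. For Tmem163 the HET minus WT difference of the log2 fold changes was -3.31 with an SE of 0.24 (adjusted p = 8.02e-05). On the scale of all 18 libraries, Tmem163 stood at 13.4, 11.2 and 11.7 CPM in HET hippocampus and at 104, 126 and 111 CPM in WT hippocampus, with no overlap. In cortex the HET range was 5.79 to 9.11 CPM and the WT range 6.41 to 8.81 CPM. For Hddc3 the difference was 1.57 with an SE of 0.20 (adjusted p = 0.0322), a call lost with a replicate block (adjusted p = 0.0886), with upper-quartile scaling (0.0622), in the fit of all 18 libraries (0.135) and in 9 of the 12 fits without 1 library. Hddc3 stood at 9.53, 9.35 and 12.4 CPM in HET cortex and 33.5, 28.8 and 31.8 CPM in WT cortex, while hippocampus gave 8.45 to 9.98 CPM (HET) and 8.15 to 10.6 CPM (WT). The cause of either was not tested.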

How the results depend on the processing

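The WT comparison kept between 12160 and 13112 calls (12666 as reported) and between 6069 and 7183 past 2-fold (6975) over the alternatives run, the HET comparison between 11331 and 13193 (12166), and no gene called both in the reported fit and in another fit of WT libraries changed direction. With a replicate block, 12475 genes were called, 6889 past 2-fold, and 11766 in HET. The same numbers did not pair libraries: deviations of same-numbered cortex and hippocampus libraries correlated at 0.035, -0.031 and -0.009. The median of all genes was -0.10 with upper-quartile scaling and -0.19 without a scaling factor. The interaction count (2) moved most: it was 99 with DESeq2, 1 with upper-quartile scaling, 1 with a replicate block, and 1 to 3992 when single libraries were left out, 3992 without HET cortex 3 and 7 without WT cortex 1. Among the lists and the genes named by rule, some values had the opposite sign in another fit. The median of the reference genes was 0.04 as reported, -0.059 with upper-quartile scaling, -0.14 without a scaling factor and -0.17 in HET. Dnm2 gave -0.015, -0.10 and -0.21 in the same 3. In HET only, the sign changed for Ccnd1 (-0.56), Pdgfrb (-0.052), Dpysl2 (-0.25), Gusb (-0.025) and Traip (-0.50). The medians of cortical layer factors (-0.12 as reported, 0.011 without cortex WT 3) and of ventral forebrain genes (0.14 as reported, -0.051 without a scaling factor and -0.080 without cortex WT 2) also crossed 0, as did that of sex-linked genes, which are not reported here. The causes were not tested. Of 735 list medians under other settings, 617 moved by less than the spread between replicates, 115 by more, and the other 3 are those of the reference genes given above; 84 of the 115 came from the 2 scalings named and from HET libraries in place of WT. Choroid plexus calls ranged from 1 lower with limma-voom to 12 without cortex WT 2. Low counts limit the fitted values of genes at or near 0.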
